A study of Mus musculus with 9 samples.

Results

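FAD DKO microglia were compared with wild type microglia across all genes named on the array, using 3 arrays of each genotype (6 of the 9 arrays of the series). Microglia, the resident macrophages of the brain, had been sorted by FACS from perfused brains of female C57Bl/6 mice aged 24 to 28 weeks. The wild type group is labelled with no transgene and no altered allele. The FAD DKO mice carried a familial Alzheimer's disease transgene set (FAD), floxed Hdac1 and Hdac2 alleles, and Cx3cr1CreERT2, a tamoxifen-inducible Cre recombinase at the fractalkine receptor locus. Every mouse of the series, wild type included, received 8 mg tamoxifen at 6 weeks of age. FAD mice with the floxed alleles and no Cre (labelled FAD Hdac1/2fl/fl, 3 arrays) are given beside single genes to place their level. The 2 groups compared differ in the amyloid transgenes, the floxed alleles, the deletion and the Cre together, and the parts of these cannot be told apart in this comparison. Whether same-group arrays were made from different mice is not stated in the labels; p-values here cover the spread of these samples, which may be technical.

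In the FAD model the transgenes lead to amyloid plaques, and microglia around plaques are known to take up a state in which genes of lipid handling, lysosomal proteolysis and phagocytosis are raised and genes of resting microglia are lowered. Hdac1 and Hdac2 code for closely related deacetylases of class I. They remove acetyl groups from histones as the catalytic subunits of corepressor complexes, and either enzyme can stand in for much of the work of the other. The comparison therefore describes microglia exposed to amyloid while both enzymes were targeted, set against microglia with neither.

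Ctse, Cst7, Fabp5, Lpl and Itgax, genes of the plaque-associated state or close to it in function, were the most raised in FAD DKO microglia, by 4.5 to 16.5 times. Crabp2, a retinoic acid binding protein, and Snora75, a small nucleolar RNA, were the most lowered. In all, 31 of 22180 genes (0.14%) passed an adjusted p under 0.05 in limma, 21 of them higher (0.0947% of genes tested) and 10 lower (0.0451%) in FAD DKO. The 3 arrays of one group lay wholly apart from the 3 of the other for each of the 31 genes. That held for 2643 of all genes tested (11.9%), and 1805 genes (8.14%) had an unadjusted p under 0.05. Values are log2 signals of the brightest probe set of a gene, and a difference of 1 on this scale is a 2-fold change. The 31 genes differed by at least 0.44, and 16 of them by at least 2-fold, 13 higher and 3 lower. The count depended on most of the single arrays. It was 3 without FAD DKO replicate 1, 6 without replicate 2 and 2 without replicate 3. It was 14 without wild type replicate 1, 2 without replicate 2 and 8 without replicate 3. The FAD arrays entered the estimate of the spread, and the count was 28, 27 and 20 without FAD replicate 1, 2 and 3 in that order. Lpl and Arsb passed whichever of the 9 arrays was omitted.

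**Figure D1:**
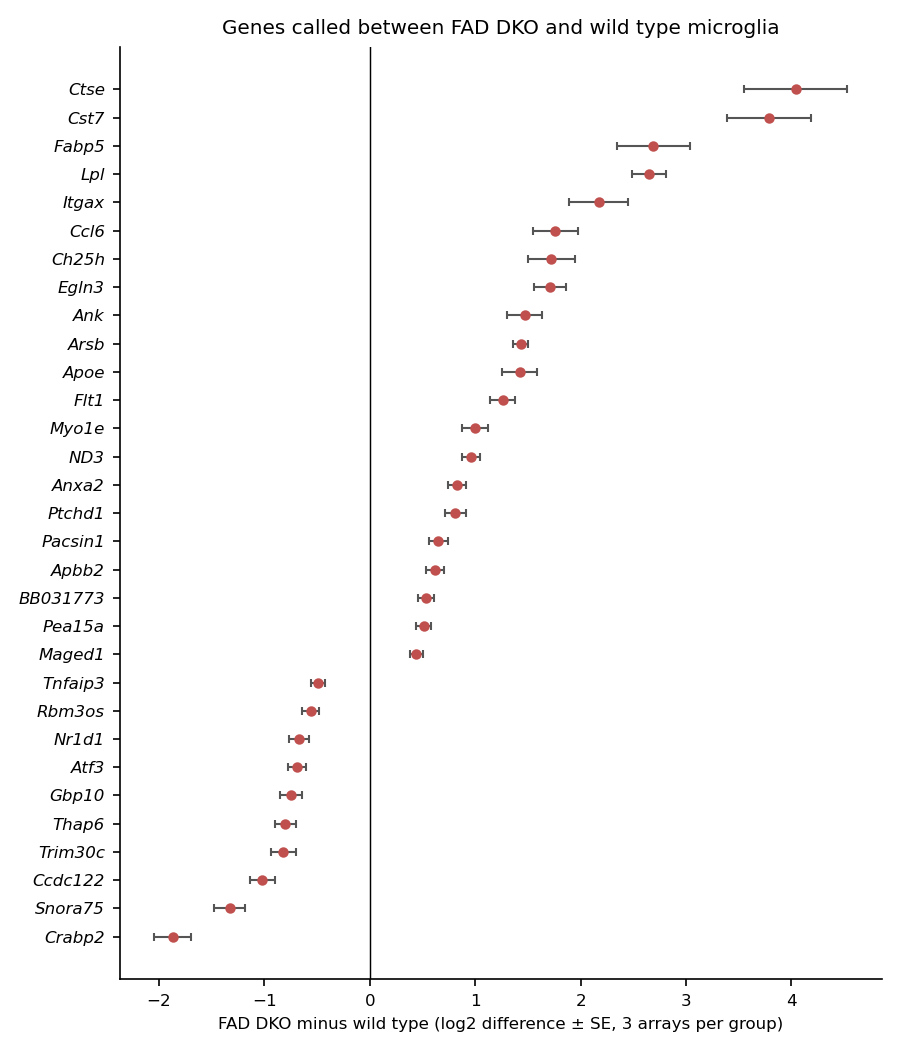
Log2 difference of FAD DKO minus wild type (x axis) for the 31 genes that passed, with the standard error as bars (3 arrays per group). The 21 higher genes run from Maged1 at 0.44 to Ctse at 4.04, and the 10 lower ones from Tnfaip3 at -0.49 to Crabp2 at -1.87.

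Some of these genes hold letters that match known response elements just before their start, and 4 stretches are shown because the genes stand for the groups described below, a plaque-associated surface gene, a sterol gene, an oxygen-responsive gene and a feedback inhibitor of inflammation. Each is the 250 bases before the most upstream RefSeq start (GRCm38.p6), 5′ to 3′ on the gene's strand. Capitals mark only the motif named here for that gene. Matches to the other motifs searched, as in Tnfaip3, stay in lower case. Itgax lies at chr7:128129300-128129549 on the plus strand and holds the AP-1 letters TGANTCA, beginning 56 bases before the start. Ch25h lies at chr19:34475149-34475398 on the minus strand and holds the cyclic AMP response element TGACGTCA, beginning 61 bases before it. Egln3 lies at chr12:54203875-54204124 on the minus strand and holds ACGTG, the core bound by hypoxia-inducible factors, beginning 229 bases before it. Tnfaip3 lies at chr10:19015411-19015660 on the minus strand and holds a match to the kappa B motif of NF-kB (3 G, any 2 bases, 3 T and 2 C) on the opposite strand, beginning 12 bases before it.
Itgax: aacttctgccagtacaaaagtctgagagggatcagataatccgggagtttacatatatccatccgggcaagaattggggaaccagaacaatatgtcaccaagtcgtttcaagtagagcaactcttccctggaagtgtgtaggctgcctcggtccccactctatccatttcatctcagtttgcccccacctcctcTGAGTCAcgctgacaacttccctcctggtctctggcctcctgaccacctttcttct
Ch25h: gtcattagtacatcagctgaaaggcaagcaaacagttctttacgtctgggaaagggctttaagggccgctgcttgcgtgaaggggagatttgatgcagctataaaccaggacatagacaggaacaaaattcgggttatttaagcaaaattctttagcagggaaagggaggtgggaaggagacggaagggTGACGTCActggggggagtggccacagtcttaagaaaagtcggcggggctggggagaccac
Egln3: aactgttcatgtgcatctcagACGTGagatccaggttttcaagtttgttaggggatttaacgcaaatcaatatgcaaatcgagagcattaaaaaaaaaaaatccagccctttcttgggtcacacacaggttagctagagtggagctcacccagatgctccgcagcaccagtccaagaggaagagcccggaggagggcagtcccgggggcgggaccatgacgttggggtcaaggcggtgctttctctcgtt
Tnfaip3: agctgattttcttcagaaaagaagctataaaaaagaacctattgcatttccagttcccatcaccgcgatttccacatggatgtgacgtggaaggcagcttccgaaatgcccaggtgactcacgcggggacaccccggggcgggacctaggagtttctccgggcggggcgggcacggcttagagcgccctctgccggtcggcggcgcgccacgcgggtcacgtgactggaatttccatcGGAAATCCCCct
Both strands were searched. Windows were at hand for 23 of the 31 genes, 27 windows in all. A gene was counted if any of its windows matched, while the percentages are shares of single windows, so the units differ. TGANTCA was found for 3 of the 23 (Anxa2, Itgax and Tnfaip3) and in 6.75% of all 32851 windows of that length. TGACGTCA was found for 2 (Ch25h and Flt1) and in 1.55% of all windows. ACGTG, which also lies inside the E-box CACGTG, was found for 5 (Anxa2, Egln3, Nr1d1, Rbm3os and Tnfaip3) and in 16.6% of all windows. The kappa B motif was found for Tnfaip3 alone among the 23 and in 1.41% of all windows. These matches describe letters in the window and were not tested as binding sites.

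The targeted genes were lower on every FAD DKO array than on any wild type array. Hdac1 read 8.07, 8.65 and 8.60 on the wild type arrays, 8.03, 8.14 and 8.19 on the FAD arrays and 7.63, 7.41 and 7.64 on the FAD DKO arrays. Hdac2 read 8.28, 8.39 and 8.22 on the wild type arrays, 8.56, 8.52 and 8.36 on the FAD arrays and 7.89, 7.61 and 7.90 on the FAD DKO arrays. Wild type replicate 1 read lowest of its group for Hdac1, and the FAD arrays lay near that replicate. In FAD DKO minus wild type, Hdac1 gave -0.88 (SE 0.147, limma adjusted p = 0.0702) and Hdac2 -0.49 (SE 0.099, adjusted p = 0.128), so neither passed. With a low-signal filter or a trended and robust variance both passed, as did Cx3cr1, and Hdac1 alone of the 3 also passed with array weights. Without wild type replicate 1 Hdac1 passed too. Probes outside the floxed exons would not report the deletion, and where the probes lie was not analysed here. Cx3cr1, the fractalkine receptor gene that houses the Cre, gave -0.33 (SE 0.0668, adjusted p = 0.133), from 12.20 ± 0.0696 to 11.88 ± 0.0683 (SD, n = 3). Among the other 16 deacetylases and sirtuins the differences ran from -0.16 (Sirt4) to 0.20 (Sirt6), with a lowest adjusted p of 0.778.

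Proteolysis in endosomes and lysosomes supplied the 2 genes with the largest rise. Ctse encodes cathepsin E, an aspartic protease of endosomes. It read 5.98, 5.38 and 5.74 on the wild type arrays, 8.47, 10.40 and 8.52 on the FAD arrays and 9.93, 9.13 and 10.16 on the FAD DKO arrays. Its difference was 4.04 (SE 0.49, adjusted p = 0.0261), a 16.5-fold rise over wild type. Both transgenic groups lay far above wild type and overlapped each other, as FAD replicate 2 exceeded all FAD DKO arrays. Cst7 encodes cystatin F, an inhibitor of cysteine cathepsins. It read 7.34, 6.89 and 6.83 on the wild type arrays, 8.65, 10.52 and 9.75 on the FAD arrays and 10.65, 10.63 and 11.14 on the FAD DKO arrays. It rose by 3.79 (SE 0.397, adjusted p = 0.0152), or 13.8-fold. For Cst7 every FAD DKO array exceeded every FAD array, yet FAD DKO minus FAD was 1.17 (SE 0.397, adjusted p = 0.504) and did not pass. Arsb, the arylsulfatase that degrades sulfated glycosaminoglycans in lysosomes, had the smallest p of all genes tested. It read 9.89, 9.70 and 9.85 on the wild type arrays, 11.18, 11.31 and 11.27 on the FAD arrays and 11.26, 11.29 and 11.19 on the FAD DKO arrays. The difference was 1.43 (SE 0.0745, adjusted p = 0.000299), and the FAD and FAD DKO means were both 11.25. A second probe set of Arsb differed by 1.23.

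Lipid handling was the next group. Lpl, the lipoprotein lipase that frees fatty acids from triglyceride-rich particles, read 5.54, 5.66 and 5.82 on the wild type arrays, 8.51, 9.01 and 8.45 on the FAD arrays and 8.22, 8.18 and 8.58 on the FAD DKO arrays. It rose by 2.65 (SE 0.164, adjusted p = 0.000652), or 6.28-fold, and its second probe set differed by 2.36. Its FAD level was at least as high as its FAD DKO level, with a difference of -0.33 between them (SE 0.164, adjusted p = 0.64). Fabp5, a cytosolic fatty acid binding protein, read 6.16, 4.91 and 4.99 on the wild type arrays, 7.51, 8.14 and 7.50 on the FAD arrays and 8.28, 7.58 and 8.26 on the FAD DKO arrays. It rose by 2.69 (SE 0.347, adjusted p = 0.0319). Of its 4 probe sets the others differed by 2.71, 1.56 and 0.45, so they disagree on the size. Wild type replicate 1 stood apart from the other wild type arrays for Fabp5, and the difference was 3.09 without it.

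Apoe, the main lipid carrier protein of the brain, read 5.50, 5.79 and 5.42 on the wild type arrays, 6.28, 6.85 and 6.52 on the FAD arrays and 7.18, 7.07 and 6.74 on the FAD DKO arrays. It rose by 1.42 (SE 0.168, adjusted p = 0.0261), or 2.69-fold. Its FAD mean of 6.55 lay between the others, and 1 FAD array overlapped the FAD DKO range. Ch25h makes 25-hydroxycholesterol, an oxysterol that restrains sterol synthesis. It read 6.05, 6.03 and 5.39 on the wild type arrays, 6.90, 7.56 and 7.04 on the FAD arrays and 7.50, 7.34 and 7.79 on the FAD DKO arrays. The rise was 1.72 (SE 0.223, adjusted p = 0.0319), against 0.32 for a second, dimmer probe set, and Ch25h did not pass with the mean of both. Of 24 measured genes on the list of cholesterol efflux and lipid handling these 4 passed, where 0.14% of all genes did. All 4 stand on the plaque-associated list too. The median of the lipid list was 0.07, with 17 members above 0, where 51.3% of all genes lay, and 7 below.

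Surface and secreted genes of the plaque-associated state formed another group. Itgax, the integrin alpha chain known as CD11c, read 6.46, 5.92 and 5.87 on the wild type arrays, 7.27, 8.29 and 7.43 on the FAD arrays and 8.11, 8.02 and 8.63 on the FAD DKO arrays. It rose by 2.17 (SE 0.282, adjusted p = 0.0319), or 4.5-fold. Ccl6, a chemokine of myeloid cells, rose by 1.76 (SE 0.215, adjusted p = 0.0261) from 6.99 ± 0.224 to 8.75 ± 0.33 (SD, n = 3). Ank, a membrane protein that moves pyrophosphate out of cells, rose by 1.47 (SE 0.168, adjusted p = 0.025) from 7.56 ± 0.175 to 9.02 ± 0.167. Their FAD means were 7.66 for Itgax, 8.60 for Ccl6 and 8.64 for Ank, each above wild type and below FAD DKO. None of the 3 passed between FAD DKO and FAD, where the adjusted p was 0.631, 0.873 and 0.614 in that order.

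**Figure D2:**
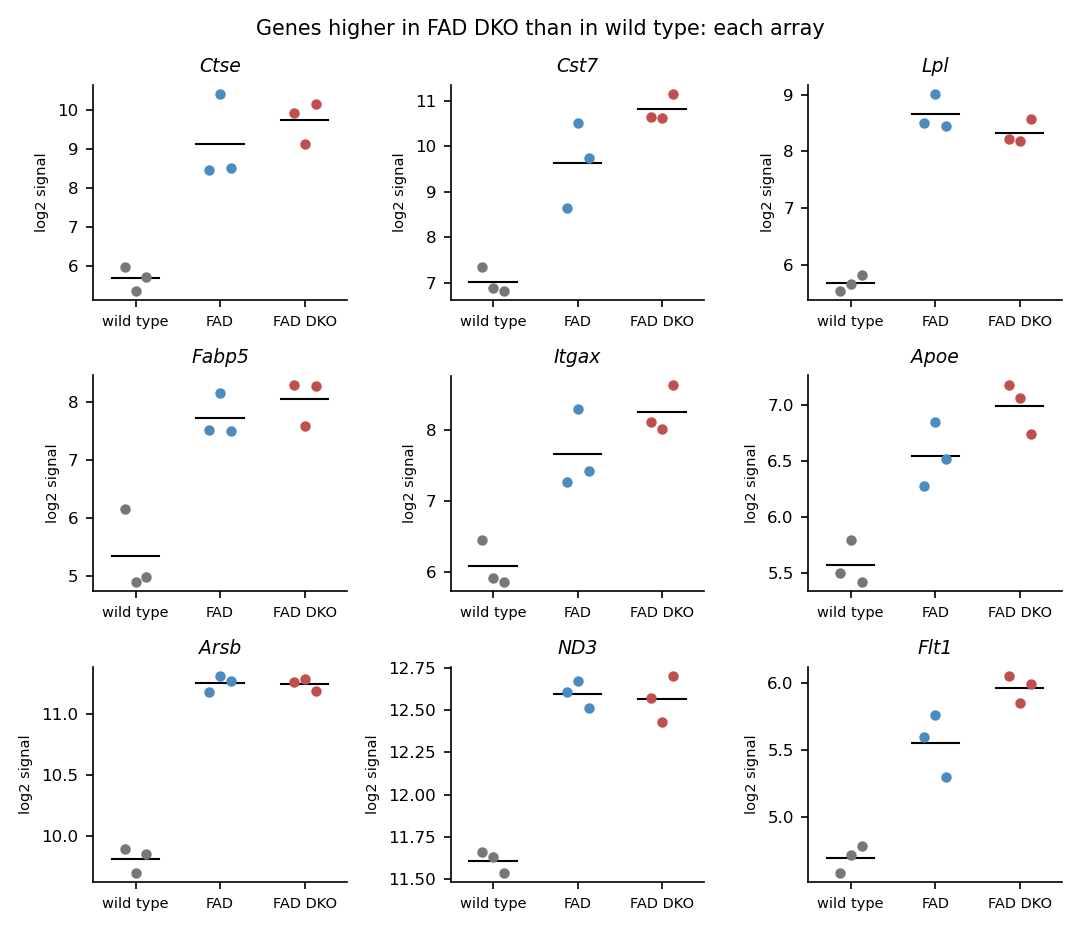
Log2 signal (y axis) of 9 genes that were higher in FAD DKO than in wild type, on each of the 3 arrays of wild type, FAD and FAD DKO (points), with the group mean as a line; each panel has its own y range. No FAD DKO point falls to the wild type range in any panel, and for Arsb and ND3 the FAD and FAD DKO points lie together.

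Of 39 measured genes on the plaque-associated list, 8 passed and all 8 were higher: Cst7, Fabp5, Lpl, Itgax, Ccl6, Ch25h, Ank and Apoe. Over all genes 0.14% passed. The list median was 0.41 against 0.004 over all genes, and 37 members lay above 0, where 51.3% of all genes did. The groups lay apart for 29 members (74.4%, against 11.9% of all genes). This list holds genes that plaque-associated microglia are known for, and it was written with earlier results of these data known, so its direction is no independent evidence. Among members that did not pass, chosen here after their values were seen, the glycoprotein gene Gpnmb stood at 2.25 (adjusted p = 0.0697), the growth factor Igf1 at 1.88 (adjusted p = 0.0819), the lectin receptor Clec7a at 1.67 (adjusted p = 0.181) and the cytokine Csf1 at 1.29 (adjusted p = 0.103). Trem2, the lipid-sensing receptor needed for the full plaque-associated state, stood at 0.11 (adjusted p = 0.76) and its adaptor Tyrobp at 0.10 (adjusted p = 0.756). List means lay 0.79, 0.81 and 0.98 above the wild type mean on the FAD DKO arrays and 0.55, 1.04 and 0.64 above it on the FAD arrays. The count of 8 was 1 when any FAD DKO array or wild type replicate 2 or 3 was left out, 3 without FAD replicate 3 and 4 without wild type replicate 1. The median then ran from 0.34 to 0.52.

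Several genes outside that list rose as well. Egln3, a prolyl hydroxylase that marks hypoxia-inducible factors for degradation and is itself oxygen-responsive, read 4.26, 4.27 and 4.15 on the wild type arrays, 5.13, 5.62 and 5.13 on the FAD arrays and 6.07, 5.68 and 6.08 on the FAD DKO arrays. It rose by 1.71 (SE 0.152, adjusted p = 0.0081), with no overlap between any of the 3 groups. Its wild type mean of 4.23 lay under the median of all probe sets (5.35), and the low-signal filter removed it. Flt1, a receptor for vascular endothelial growth factor, read 4.59, 4.72 and 4.79 on the wild type arrays, 5.60, 5.76 and 5.30 on the FAD arrays and 6.05, 5.85 and 5.99 on the FAD DKO arrays. It rose by 1.26 (SE 0.12, adjusted p = 0.00872), and its FAD arrays again lay between the other groups. Between FAD DKO and FAD the difference was 0.65 (SE 0.152, adjusted p = 0.3) for Egln3 and 0.41 (SE 0.12, adjusted p = 0.407) for Flt1. Flt1 is also an endothelial marker, and of the 17 endothelial and mural markers measured it alone passed, where 0.14% of all genes did. On that list Pecam1 and Tek stood at -0.45 and -0.30 and Vtn at 0.12. Its members lay above 0 for 11 genes and below 0 for 6, with a median of 0.01. On the glycolysis list, Hif1a (0.54, adjusted p = 0.188) and the glucose transporter Slc2a1 (0.53, adjusted p = 0.105) lay higher on every FAD DKO array without passing. That list had 16 of 21 members above 0, where 51.3% of all genes lay, and a median of 0.14. It had 0 passing in limma, with 6 at an unadjusted p under 0.05, which 8.14% of all genes had. Its median was 0.07 without wild type replicate 1.

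Anxa2 and Myo1e also rose. Anxa2, an annexin that links membranes to actin, rose by 0.83 (SE 0.0868, adjusted p = 0.0152) from 4.87 ± 0.0394 to 5.69 ± 0.151 (SD, n = 3). Myo1e, a myosin motor of the cell cortex, read 6.91, 6.62 and 6.74 on the wild type arrays, 8.18, 8.42 and 8.34 on the FAD arrays and 7.63, 7.63 and 8.01 on the FAD DKO arrays. It rose by 1.0 (SE 0.125, adjusted p = 0.0291), and all 3 FAD arrays lay above all FAD DKO arrays, where the difference of -0.55 did not pass (SE 0.125, adjusted p = 0.282). A further 6 higher genes fell outside the rule by which genes were named and are given because the count is small. Ptchd1, a patched-domain membrane protein, rose by 0.81, with a second probe set at 0.35, and did not pass with the mean of both. Pacsin1, which bends membranes in endocytosis, rose by 0.65, and Apbb2, an adaptor that binds the tail of the amyloid precursor protein, by 0.62. The long noncoding RNA gene BB031773 rose by 0.53, Pea15a, a binding partner of the kinase ERK, by 0.51 and Maged1, a MAGE family protein, by 0.44. Their adjusted p lay between 0.0261 for Ptchd1 and 0.0462 for Apbb2. Pacsin1, BB031773, Pea15a and Maged1 passed in no fit that left out 1 array, and Apbb2 did not pass with quantile normalization.

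ND3, a complex I subunit gene of the mitochondrial genome, moved apart from the other genes of its genome. It read 11.66, 11.63 and 11.54 on the wild type arrays, 12.61, 12.67 and 12.51 on the FAD arrays and 12.57, 12.43 and 12.70 on the FAD DKO arrays. It rose by 0.96 (SE 0.0861, adjusted p = 0.0081), or 1.94-fold, with FAD and FAD DKO at the same level. The other 9 mitochondrially encoded genes measured differed by -0.08 to 0.03, with a lowest adjusted p of 0.876. On the list of oxidative phosphorylation, nuclear genes included, ND3 was the single member of 36 that passed, where 0.14% of all genes did. The list median was 0.02.

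Among the genes that fell, Crabp2 changed most. It read 7.62, 7.74 and 7.11 on the wild type arrays, 5.20, 5.69 and 5.65 on the FAD arrays and 5.64, 5.61 and 5.62 on the FAD DKO arrays. Crabp2 fell by 1.87 (SE 0.175, adjusted p = 0.00872), so that wild type was 3.64 times higher. As for Arsb and ND3, the transgenic groups lay together, and FAD DKO minus FAD was 0.11 (SE 0.175, adjusted p = 0.886). Ccdc122, a coiled-coil protein gene, fell by 1.02 (SE 0.12, adjusted p = 0.0261) from 5.65 ± 0.152 to 4.63 ± 0.196 (SD, n = 3), with FAD at 5.39. Thap6, annotated as a transcribed pseudogene, fell by 0.80 (SE 0.102, adjusted p = 0.0317) from 7.09 ± 0.0717 to 6.29 ± 0.117, with FAD at 7.21. Rbm3os, a long noncoding RNA gene, fell by 0.56 (SE 0.0788, adjusted p = 0.0438), from 6.01 to 5.45, with FAD at 5.90. Rbm3os passed in no fit that left out 1 array. For Ccdc122, Thap6 and Rbm3os the FAD mean lay nearer to wild type than to FAD DKO. FAD DKO minus FAD passed for Thap6 (-0.92, SE 0.102, adjusted p = 0.0362). It did not pass for Ccdc122 (-0.76, adjusted p = 0.198) or Rbm3os (-0.45, adjusted p = 0.212).

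Atf3 and Tnfaip3, regulators of stress and inflammatory responses, fell. Atf3, a transcription factor induced by stress, read 9.67, 9.91 and 9.82 on the wild type arrays, 9.96, 9.92 and 9.85 on the FAD arrays and 9.21, 9.12 and 9.02 on the FAD DKO arrays. It fell by 0.69 (SE 0.0838, adjusted p = 0.0261), and FAD lay with wild type. FAD DKO minus FAD was -0.79 for Atf3 (SE 0.0838, adjusted p = 0.0314) and passed. Tnfaip3 encodes A20, a ubiquitin-editing enzyme induced by NF-kB that then shuts NF-kB signalling down. It read 7.83, 7.82 and 7.87 on the wild type arrays, 7.61, 7.54 and 7.59 on the FAD arrays and 7.29, 7.46 and 7.31 on the FAD DKO arrays. It fell by 0.49 (SE 0.0677, adjusted p = 0.0438), in steps that left the 3 groups apart. Tnfaip3 did not pass in any of the 9 fits that left out 1 array, or with quantile normalization, although its difference stayed between -0.54 and -0.46 when 1 array was left out.

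The list of immediate early and isolation stress genes had 28 of 33 measured members below 0 and a median of -0.19, where 48.6% of all genes lay below 0. Atf3 was the 1 member that passed, where 0.14% of all genes did. The groups lay apart for 14 members (42.4%, against 11.9% of all genes), 13 lower and 1 higher in FAD DKO. Members that did not pass included the transcription factor Egr1 at -0.44 (adjusted p = 0.0928), the early response gene Ier3 at -0.41 (adjusted p = 0.167) and, in the other direction, the chaperone gene Hsph1 at 0.53 (adjusted p = 0.271). List means on the FAD DKO arrays were -0.20, -0.19 and -0.23 relative to the wild type mean, and 0.13, -0.13 and 0.08 on the FAD arrays. Genes of this list are known to respond to the handling of cells during isolation, and the part of handling in the difference was not tested.

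The list of cytokines and feedback genes of NF-kB had 26 of 34 members below 0, where 48.6% of all genes lay, and a median of -0.14. Tnfaip3 was the 1 member that passed, where 0.14% of all genes did. The groups lay apart for 14 (41.2%, against 11.9% of all genes), 12 lower and 2 higher. The chemokine Ccl12 read 10.91, 10.95 and 10.72 in wild type and 10.28, 10.18 and 10.07 in FAD DKO, a difference of -0.68 (SE 0.0994, adjusted p = 0.0512) that narrowly missed. Nfkbia, which keeps NF-kB out of the nucleus, stood at -0.58 (adjusted p = 0.0637) and the chemokine Ccl2 at -0.60 (adjusted p = 0.111). The chemokines Ccl3 and Ccl4 were near their wild type level in FAD DKO. Ccl3 read 11.17, 11.19 and 10.94 on the wild type arrays, 11.76, 11.80 and 11.68 on the FAD arrays and 11.20, 11.20 and 11.09 on the FAD DKO arrays, a difference of 0.07 (SE 0.0844, adjusted p = 0.882). The Ccl4 difference was 0.16 (SE 0.153, adjusted p = 0.841). Prkd1, protein kinase D1, behaved alike, at 3.34, 3.76 and 3.86 on the wild type arrays, 5.78, 6.04 and 6.26 on the FAD arrays and 3.86, 4.14 and 4.08 on the FAD DKO arrays, a difference of 0.37 (SE 0.162, adjusted p = 0.602). These 3 genes were chosen after their values were seen.

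Nr1d1 encodes REV-ERB alpha, a repressor of the circadian clock. It read 6.56, 6.36 and 6.59 on the wild type arrays, 6.06, 5.96 and 6.25 on the FAD arrays and 5.81, 5.83 and 5.86 on the FAD DKO arrays. Nr1d1 fell by 0.67 (SE 0.0928, adjusted p = 0.0435), with the groups apart. Its transcript is known to cycle over the day, and the labels give no time of sampling.

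Gbp10 and Trim30c, relatives of interferon-inducible genes, fell in FAD DKO. Gbp10, a guanylate-binding GTPase, read 7.03, 7.14 and 7.38 on the wild type arrays, 6.57, 6.60 and 6.37 on the FAD arrays and 6.38, 6.51 and 6.41 on the FAD DKO arrays. It fell by 0.75 (SE 0.104, adjusted p = 0.0435). Trim30c, a TRIM family gene, read 6.04, 6.04 and 6.11 on the wild type arrays, 5.43, 5.47 and 5.55 on the FAD arrays and 5.47, 4.97 and 5.29 on the FAD DKO arrays, and fell by 0.82 (SE 0.116, adjusted p = 0.0438). FAD arrays shared the lower level for both. Like Tnfaip3, neither passed in any fit that left out 1 array, and Gbp10 did not pass with quantile normalization. These genes have close relatives, and signal from a relative cannot be told apart here. On the interferon response list, which holds neither, the median was -0.38. All 29 measured members lay below 0, where 48.6% of all genes did. In limma 0 of them passed and 14 had an unadjusted p under 0.05, which 8.14% of all genes had. The groups lay apart for 11 (37.9%, against 11.9% of all genes). Gbp7 stood at -0.57 (adjusted p = 0.0702), the RNA sensor Ifih1 at -0.40 (adjusted p = 0.103) and Oas2, an antiviral oligoadenylate synthetase, at -1.12 (adjusted p = 0.204). The wild type arrays differed widely on this list, by 0.28, 0.01 and -0.29 around their mean, while the FAD DKO arrays stood at -0.47, -0.55 and -0.42. Without wild type replicate 1 the median was -0.22.

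**Figure D3:**
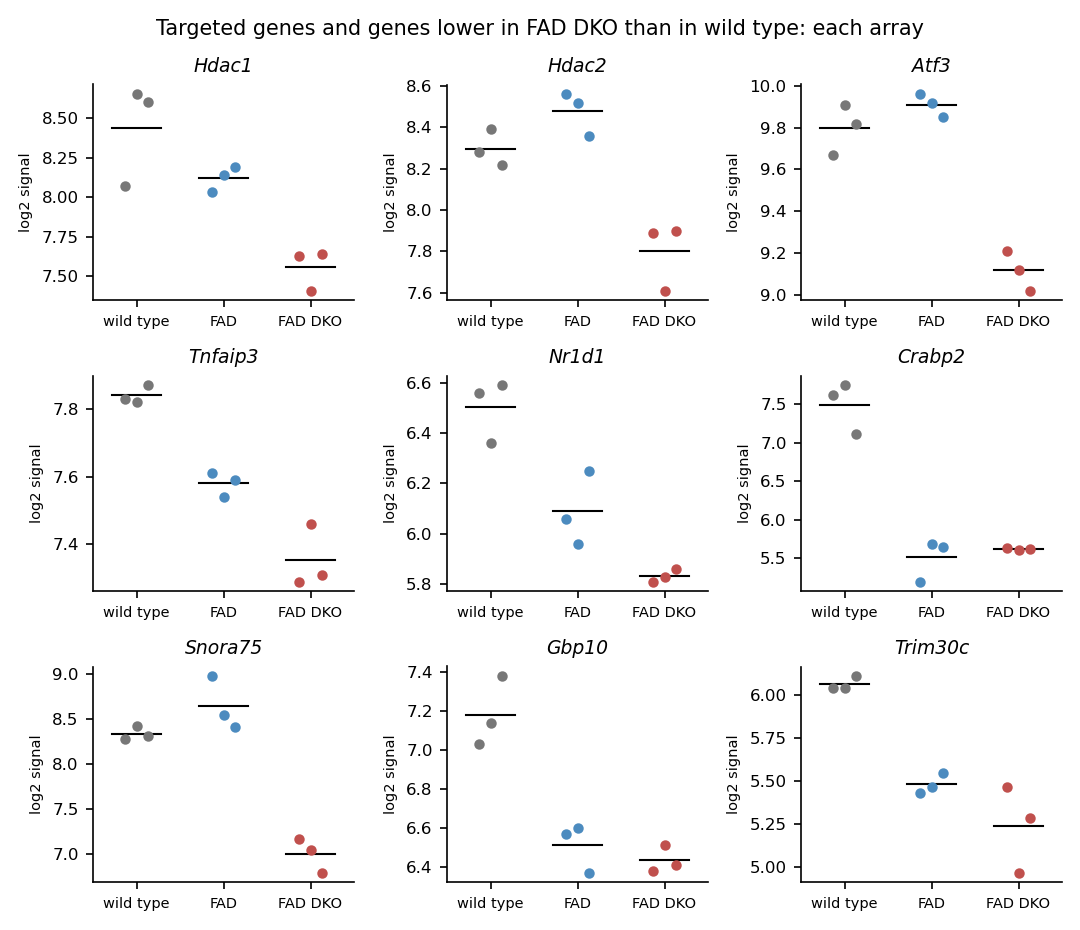
Log2 signal (y axis) of the targeted genes Hdac1 and Hdac2 and of 7 genes that fell, on each of the 3 arrays of wild type, FAD and FAD DKO (points), with the group mean as a line; each panel has its own y range. Atf3 and Snora75 are low in FAD DKO alone, Crabp2 and Gbp10 are low in both transgenic groups, and Tnfaip3 steps down from wild type to FAD to FAD DKO.

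Of 564 small RNA genes 1 passed, where 0.14% of all genes did, and 315 lay below 0, where 48.6% of all genes did. Snora75 guides pseudouridylation of ribosomal RNA. It read 8.27, 8.42 and 8.31 on the wild type arrays, 8.97, 8.54 and 8.41 on the FAD arrays and 7.16, 7.04 and 6.79 on the FAD DKO arrays. It fell by 1.33 (SE 0.149, adjusted p = 0.0227), and FAD DKO was low against both other groups, at -1.64 from FAD (SE 0.149, adjusted p = 0.0121). Of 74 small nucleolar RNA genes measured 55 lay below 0, with a median of -0.19. Snora28 was at -0.73 (adjusted p = 0.0512) and Snord65 at -0.49 (adjusted p = 0.15). The microRNA gene Mir18 was at -0.47 (adjusted p = 0.0684) and Mir871 at 0.48 (adjusted p = 0.0928), the latter from a wild type signal of 2.24. FAD DKO minus FAD was -0.87 for Mir18 (SE 0.0756, adjusted p = 0.0121) and passed.

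Of 10 defining markers of microglia 9 were measured. Their mean signals ran from 9.47 to 12.20 in wild type and from 9.51 to 11.94 in FAD DKO, and 0 passed. The median of these means was 11.35 in wild type and 10.86 in FAD DKO. Each median was taken within its group, so it may fall on different genes and is not a typical difference of a marker. On the longer homeostatic list 28 of 33 members lay below 0, where 48.6% of all genes did, and the median was -0.07. The groups lay apart for 16 lower members and 1 higher (51.5% together, against 11.9% of all genes). In limma 0 passed and 11 had an unadjusted p under 0.05, all lower, against 8.14% of all genes. The purinergic receptor gene P2ry12, with which microglia sense nucleotides, read 12.08, 12.03 and 12.16 in wild type and 11.92, 11.92 and 11.90 in FAD DKO, a difference of -0.18 (adjusted p = 0.487). Cd164, a sialomucin, was at -0.41 (adjusted p = 0.0764) and Crybb1, a crystallin gene marking microglia, at -0.52 (adjusted p = 0.188). The transcription factor Sall1 was at -0.03 (adjusted p = 0.938) and Tmem119 at 0.04 (adjusted p = 0.951).

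**Figure D4:**
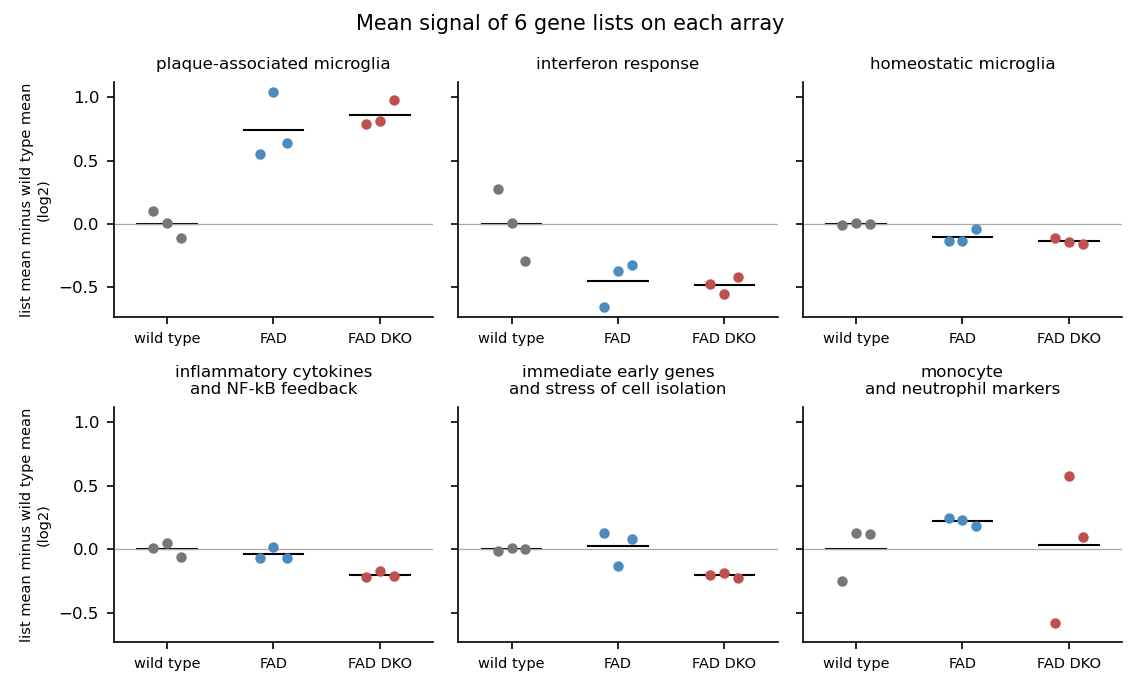
Mean log2 signal of 6 gene lists on each array relative to the wild type mean (y axis), for wild type, FAD and FAD DKO (points, with the group mean as a line). The plaque-associated list lies 0.79 to 0.98 above the wild type mean in FAD DKO, the interferon list 0.42 to 0.55 below it, and the monocyte and neutrophil markers spread from -0.58 to 0.58 within FAD DKO.

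The groups lay apart for 38.7% of phagocytic receptor and complement genes, 33.3% of lysosome genes, 23.5% of cholesterol synthesis genes and 22.2% of antigen presentation genes, against 11.9% of all genes. Counts at an unadjusted p under 0.05 stand against 8.14% of all genes and counts that passed against 0.14%. Counts above 0 stand against 51.3% of all genes and counts below 0 against 48.6%. The lysosome list had 25 of 33 members above 0 and a median of 0.07. Arsb was its 1 member that passed, and the cysteine protease gene Ctsb was at 0.26 (adjusted p = 0.4). Cholesterol synthesis had 13 of 17 members above 0 and a median of 0.08, with 0 passing in limma and 4 at an unadjusted p under 0.05. Its sterol transporter gene Stard4 was at 0.42 (adjusted p = 0.358). Phagocytic receptors and complement had 13 members above and 18 below 0 and a median of -0.02, with 0 passing and 8 at an unadjusted p under 0.05. There the receptor kinase gene Axl was at 1.06 (adjusted p = 0.0959) and the scavenger receptor gene Stab1 at -0.58 (adjusted p = 0.0697). Antigen presentation was even, with 9 members on each side, 0 passing and 3 at an unadjusted p under 0.05. Its MHC class II genes H2-Aa and H2-Ab1 were at 0.80 (adjusted p = 0.248) and 0.96 (adjusted p = 0.384), and FAD DKO replicate 1 was the lowest of its group for both, at 7.32 and 8.11.

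Growth, survival and chromatin lists had medians from -0.02 to 0.10, and 0 of their members passed in limma. The counts at an unadjusted p under 0.05 that follow stand against 8.14% of all genes. The cell cycle list had a median of 0.04 over 33 genes (4 at an unadjusted p under 0.05), with the replication clamp gene Pcna at -0.42 (adjusted p = 0.293). The cyclin-dependent kinase inhibitors had a median of 0.10 over 8 genes (2 at an unadjusted p under 0.05), and p53 targets and DNA damage genes 0.06 over 23 (3). Apoptosis regulators had 0.02 over 19 (3). Among them Bcl2, which blocks apoptosis, read 6.09, 6.61 and 6.48 on the wild type arrays, 7.55, 7.63 and 7.37 on the FAD arrays and 6.97, 7.02 and 6.98 on the FAD DKO arrays, a difference of 0.60 (SE 0.128, adjusted p = 0.159). Subunits of the HDAC1/2 corepressor complexes ran from -0.23 (Chd3) to 0.15 (Suds3) over 33 genes, with a median of 0.01 and 1 at an unadjusted p under 0.05. Histone acetyltransferases and bromodomain readers ran from -0.15 (Brd2) to 0.26 (Hat1) over 17 genes, with a median of -0.02 and 2 at an unadjusted p under 0.05. The whole histone deacetylase list had a median of 0, with Hdac1 and Hdac2 the 2 genes at an unadjusted p under 0.05.

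**Figure D5:**
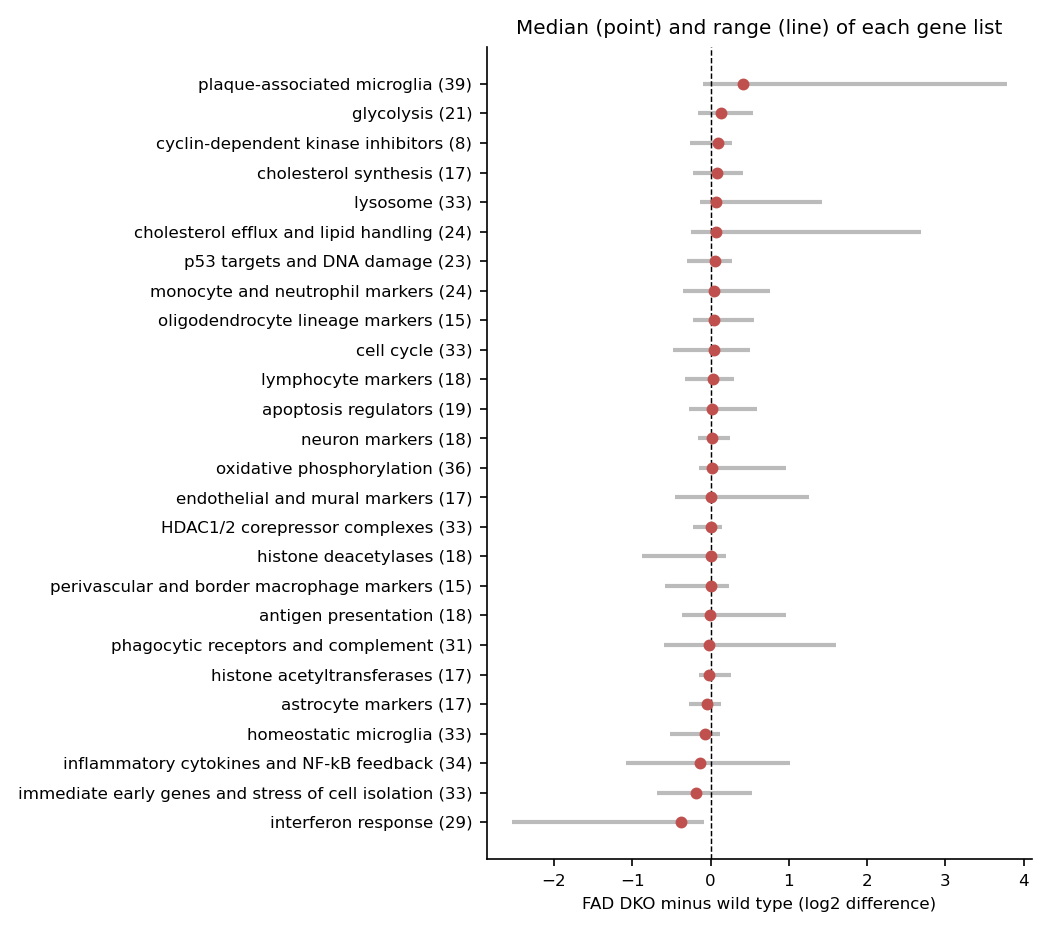
Median (point) and range (line) of the log2 difference of FAD DKO minus wild type (x axis) for each of the 26 gene lists, with the number of genes measured in brackets; the dashed line is the median over all genes (0.004). The plaque-associated list has the highest median (0.41) and the interferon list the lowest (-0.38).

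Markers of other cells were read as lists. In bulk samples, fewer cells of a type and less RNA per cell cannot be told apart. Neuron markers had a median of 0.02 and 0 of 18 at an unadjusted p under 0.05, which 8.14% of all genes had. Their array means ran from 4.85 to 4.95 in wild type and 4.82 to 5.05 in FAD DKO. Astrocyte markers had a median of -0.05 over 17 genes (1 at an unadjusted p under 0.05). Of them 14 lay below 0, where 48.6% of all genes did. Oligodendrocyte lineage markers had 0.05 over 15 (2), endothelial and mural markers 0.01 over 17 (3) and lymphocyte markers 0.03 over 18 (4). The groups lay apart for 17.6%, 13.3%, 17.6% and 16.7% of these lists in that order, against 11.9% of all genes. Perivascular and border macrophage markers had a median of 0 over 15 genes (1 at an unadjusted p under 0.05), with the groups apart for 20.0%. Their array means overlapped (6.06 to 6.27 in wild type, 5.99 to 6.21 in FAD DKO). Of these 6 lists Flt1 alone passed, as given above. Monocyte and neutrophil markers were the uneven list. Their median was 0.05 over 24 genes with 0 passing and 2 at an unadjusted p under 0.05, but the array means ran from 6.16 to 6.54 in wild type and from 5.83 to 7.0 in FAD DKO. Those 2 were Cxcr2 at 0.76 (limma adjusted p = 0.103) and Vcan at -0.26 (adjusted p = 0.502), with the groups apart for both. Cxcr2 passed with a low-signal filter or a trended and robust variance. The neutrophil granule gene Camp, chosen after its values were seen, read 5.95, 9.28 and 8.08 on the FAD DKO arrays and 7.01, 7.93 and 8.27 on the wild type arrays. The median of this list was 0.34 without FAD DKO replicate 1 and -0.22 without replicate 2. Without these arrays in turn, 3 and 6 genes passed over the whole array, as given above, and the part of these cells in the differences was not tested.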

How the data were processed

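Total RNA of sorted microglia was amplified and biotin-labelled before 1-colour hybridisation, per the labels. The authors deposited log2 signals per probe set, made with RMA per the submitters' processing notes. RMA corrects background, applies quantile normalization and summarises probes. The sources used here give neither its version nor its summary level. No detection calls were used, so low signals say little about change. Array medians ran from 5.346 to 5.398, and no 2 arrays differed with an SD under 0.335.

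Of 41345 probe sets 23521 carried a single gene symbol, 1814 more than one, and 16010 none. The brightest probe set stood for each of 22180 genes. Symbols were checked against RefSeq GRCm38.p6 (23328 probe sets matched). The FAD DKO minus wild type difference was fitted with limma 3.58.1 in R 4.3.3 over all 9 arrays with a mean per group (6 residual degrees of freedom, 8.98 after moderation; median SE 0.104). Tests are two-sided, with Benjamini-Hochberg adjustment over all genes and a threshold of 0.05. The fit was also run on simulated data with independent noise on each gene and array. Such data hold no differences shared by many genes of an array, so they cannot check for those.

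The members and lists were chosen with earlier results of these data known. There were 623 measured genes among 681 entries on 26 lists. The text names Hdac1, Hdac2 and Cx3cr1, up to 15 passing genes in each direction with the largest difference and no overlap (unnamed models and small RNAs left out), 5 small RNA genes, and from each list its passing members and up to 4 with the smallest p. Any other gene named was chosen after its values were seen. Replicate numbers were not used as a block. Alternatives were a low-signal filter, quantile normalization, a trended and robust variance, 2 groups only, array weights, the mean of probe sets, every probe set, a replicate block and leaving out each array. Figures used Python 3.11.15 and matplotlib 3.10.9.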

Additional observations from a re-analysis of the deposited data

Results flagged for a closer look

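Probe sets without a single gene symbol were outside the comparison. In a fit of every probe set, 5 of these 17824 passed (0.0281%), 4 of them higher and 1 lower in FAD DKO. The 2 with the largest rise went from 5.26 to 7.92 (probe set 17551165, 2.66) and from 4.85 to 7.25 (probe set 17551169, 2.40) on the log2 scale. The lower one, probe set 17289132, is listed with both Cmya5 and A630019I02Rik and went from 7.26 to 6.35.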

How the results depend on the processing

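The count of 31 genes was 117 with a low-signal filter (28 of the 31 among them), 124 with a trended and robust variance (31), 82 with array weights (31), 13 with only the 2 groups compared (10), 11 with a replicate block (9) and 14 with every probe set tested (8). Egln3, Ccdc122 and BB031773 were removed by the low-signal filter and so were not tested with it. The count was between 2 and 28 when 1 array was left out. Quantile normalization gave 33 and the mean of probe sets 29. The causes were not tested, beyond that fewer or more features were tested or fewer arrays used. Replicate numbers are not stated to pair animals, so they were not taken as pairs. Same-numbered wild type and FAD DKO arrays correlated at 0.122, 0.099 and -0.048 in their deviations from the group means. Differently numbered ones ran from -0.189 to 0.109, and the FAD arrays were not part of this check. List medians that moved by more than their spread among arrays were cyclin-dependent kinase inhibitors (0.04 with array weights), astrocyte markers (-0.16 with a low-signal filter) and lymphocyte markers (-0.03 with array weights, -0.17 with a low-signal filter). With 1 array left out they ran from 0.03 to 0.12 for cholesterol synthesis, 0.04 to 0.16 for cyclin-dependent kinase inhibitors, 0.07 to 0.18 for glycolysis, 0 to 0.07 for p53 targets, -0.01 to 0.03 for apoptosis regulators and -0.03 to 0.02 for histone deacetylases. Signal over background was not analysed, and 3 arrays a group limit the precision.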

Other observations

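The genes of the Ifi200 family, interferon-inducible proteins of which some sense DNA, differed strongly between single arrays. These genes were chosen after their values were seen, and none passed. Ifi202b read 2.97, 3.24 and 3.03 on the wild type arrays, 5.71, 3.01 and 2.98 on the FAD arrays and 5.76, 5.86 and 4.89 on the FAD DKO arrays, a difference of 2.42 from wild type (adjusted p = 0.297). FAD replicate 1 thus lay with the FAD DKO arrays and the other FAD arrays lay with wild type. Ifi204 ran the other way, at 8.21, 7.53 and 6.60 on the wild type arrays, 4.25, 6.74 and 6.67 on the FAD arrays and 4.55, 4.29 and 5.90 on the FAD DKO arrays (difference -2.54, adjusted p = 0.335). Ifi209 stood at -1.47 (adjusted p = 0.276), and Aim2, a DNA sensor of the inflammasome, at -0.02 (adjusted p = 0.968).

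Crabp2's fall was accompanied by a lower signal of Isg20l2, an exonuclease gene, at 8.03, 8.06 and 7.54 in wild type and 7.02, 6.88 and 6.88 in FAD DKO (difference -0.95, adjusted p = 0.0637). Fuca1, a lysosomal fucosidase, lay at the threshold with 0.64 (adjusted p = 0.05), and Mif, a macrophage cytokine, was at 0.57 (adjusted p = 0.0829).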
